A study of Mus musculus with 2 samples.

Results

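The Zbtb genes are the mouse genes for BTB zinc finger proteins whose symbol is Zbtb followed by a number. They were chosen by symbol from the protein-coding genes of RefSeq on GRCm38 (mm10), and 41 of 21486 genes with a known strand matched. The family was selected on H3K4me1 peak coverage values of these same lists, so its high coverage is a description and carries no test. Of the 41, 40 encode BTB zinc finger proteins. Zbtb8os matches the pattern but encodes archease, a cofactor of the tRNA ligase, and was kept as the rule has it. The members lie on 15 chromosomes.

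H3K4me1, the monomethylated form of histone H3 lysine 4, was mapped by chromatin immunoprecipitation and sequencing in E14TG2a.4, an established embryonic stem cell line. Per the labels, the line is male, comes from mouse strain 129/Ola at embryonic day 3.5, and was untreated as far as they say. There is 1 group of 2 biological replicates, and nothing in the labels says whether these were separate cultures, so the SD measures the spread between these 2 libraries only. The results describe this single cell line, and with 1 group no conditions can be compared. The deposited lists held 313453 intervals in replicate 1, 325226 in replicate 2 and 226060 that the authors kept as replicated. They held no read counts, so the depth is unknown.

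BTB zinc finger proteins pair through an N-terminal BTB domain, which also recruits corepressors or the CUL3 ubiquitin ligase, and bind DNA through C-terminal zinc fingers. Several direct blood lineages, others read methylated DNA, and most act as repressors. H3K4me1 marks enhancers and the flanks of active promoters, while the centre of an active promoter usually carries the trimethylated form.

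Promoter sequences from RefSeq on GRCm38.p6, 250 bases before to 50 after a listed start, matched 36 of the 41 genes. The 5 printed here were picked to set base composition beside coverage, from CpG-dense to CpG-poor. Capitals mark CpG dinucleotides, and each sequence is written 5′ to 3′ on the strand of the gene. Zbtb34 at chr2:33431275-33431574 (minus strand), among the most covered windows, holds 42 CpGs and no covered base in these 300 bases in either replicate. Zbtb18 at chr1:177442101-177442400 (plus strand), a sparsely covered gene, holds 51, the most of the 36. The least covered member, Zbtb33 at chrX:38189543-38189842 (plus strand), holds 34. Zbtb38 at chr9:96731626-96731925 (minus strand) holds 8, has a GC content of 41.0%, and was the only matched promoter covered throughout in both replicates. Zbtb46 at chr2:181424339-181424638 (minus strand) holds 1, at a start that lies 68874 bp inside the gene record and carried no replicated interval within 2 kb.
Zbtb34: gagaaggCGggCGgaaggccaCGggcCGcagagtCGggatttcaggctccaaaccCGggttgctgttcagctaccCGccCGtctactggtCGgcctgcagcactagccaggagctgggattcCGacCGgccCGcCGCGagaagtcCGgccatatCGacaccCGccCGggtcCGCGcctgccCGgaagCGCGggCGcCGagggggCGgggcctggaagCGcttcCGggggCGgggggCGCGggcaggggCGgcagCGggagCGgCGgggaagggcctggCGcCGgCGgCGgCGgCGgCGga
Zbtb18: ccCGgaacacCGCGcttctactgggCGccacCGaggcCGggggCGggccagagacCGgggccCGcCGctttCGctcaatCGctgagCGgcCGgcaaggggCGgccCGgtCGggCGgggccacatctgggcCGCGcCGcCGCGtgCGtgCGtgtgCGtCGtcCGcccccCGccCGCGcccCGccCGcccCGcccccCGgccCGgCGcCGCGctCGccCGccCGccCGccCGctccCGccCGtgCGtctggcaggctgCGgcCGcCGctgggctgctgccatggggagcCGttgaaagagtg
Zbtb33: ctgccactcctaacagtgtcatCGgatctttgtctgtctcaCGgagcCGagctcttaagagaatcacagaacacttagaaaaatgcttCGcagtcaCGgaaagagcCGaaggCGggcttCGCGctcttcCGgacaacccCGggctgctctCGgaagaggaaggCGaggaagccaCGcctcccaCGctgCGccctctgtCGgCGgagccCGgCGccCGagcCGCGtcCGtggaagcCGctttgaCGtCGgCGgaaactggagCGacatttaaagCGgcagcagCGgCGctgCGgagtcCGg
Zbtb38: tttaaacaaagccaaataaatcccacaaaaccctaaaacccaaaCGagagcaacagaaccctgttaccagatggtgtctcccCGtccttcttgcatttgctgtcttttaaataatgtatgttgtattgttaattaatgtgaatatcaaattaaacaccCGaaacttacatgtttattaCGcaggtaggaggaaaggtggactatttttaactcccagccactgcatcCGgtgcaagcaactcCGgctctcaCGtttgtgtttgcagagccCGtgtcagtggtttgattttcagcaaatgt
Zbtb46: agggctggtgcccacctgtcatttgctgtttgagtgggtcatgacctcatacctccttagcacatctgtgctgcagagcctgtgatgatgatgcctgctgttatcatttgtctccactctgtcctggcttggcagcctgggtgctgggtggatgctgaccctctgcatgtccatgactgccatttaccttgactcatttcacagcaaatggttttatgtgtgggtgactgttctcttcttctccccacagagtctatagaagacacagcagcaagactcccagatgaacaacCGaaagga

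For each replicate, coverage was the share, in percent, of a 40 kb window centred on the transcription start site (TSS) that peak intervals filled, with the TSS at the 5′ end of the gene record. The median over the 41 Zbtb genes was 41.8% in replicate 1 and 37.1% in replicate 2, against 14% in replicate 1 and 13.7% in replicate 2 for all protein-coding genes. Over the gene records from start to end the medians were 43.7% and 41.3% for Zbtb genes, against 12.4% and 12.2% for all genes. In the replicated list the window medians were 46.2% and 15.7%. In each of these lists the family median lay above that of all genes, and the family was chosen on coverage in these lists.

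Of the 41 members, 32 lay above the median of all genes in both replicates, as 48.2% of all genes did. Above the 90th percentile in both replicates, at 51.4% and 50.5%, were 14 members, against 8.9% of all genes. A replicated interval lay within 2 kb of the TSS in 40 members and in 72.8% of all genes. All shares in this paragraph rest on the coverage that led to the choice of the family, and nothing is read from their distance to the background. With 5 kb on each side of the TSS, 8 members lay above the 90th percentile in both replicates, against 8.49% of all genes, and 6 of them were among the 14. With only the 50000 strongest intervals of each list the family median fell to 19.4%, against 2.53% for all genes. No member was without coverage in both replicates, whereas 15.6% of all genes were. Below the median of all genes in both replicates were 7 members, against 48.2% of all genes. Zbtb21 (13.6% and 16.6%) and Zbtb41 (12.4% and 13.9%) were above it in replicate 2 only.

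**Figure D1:**
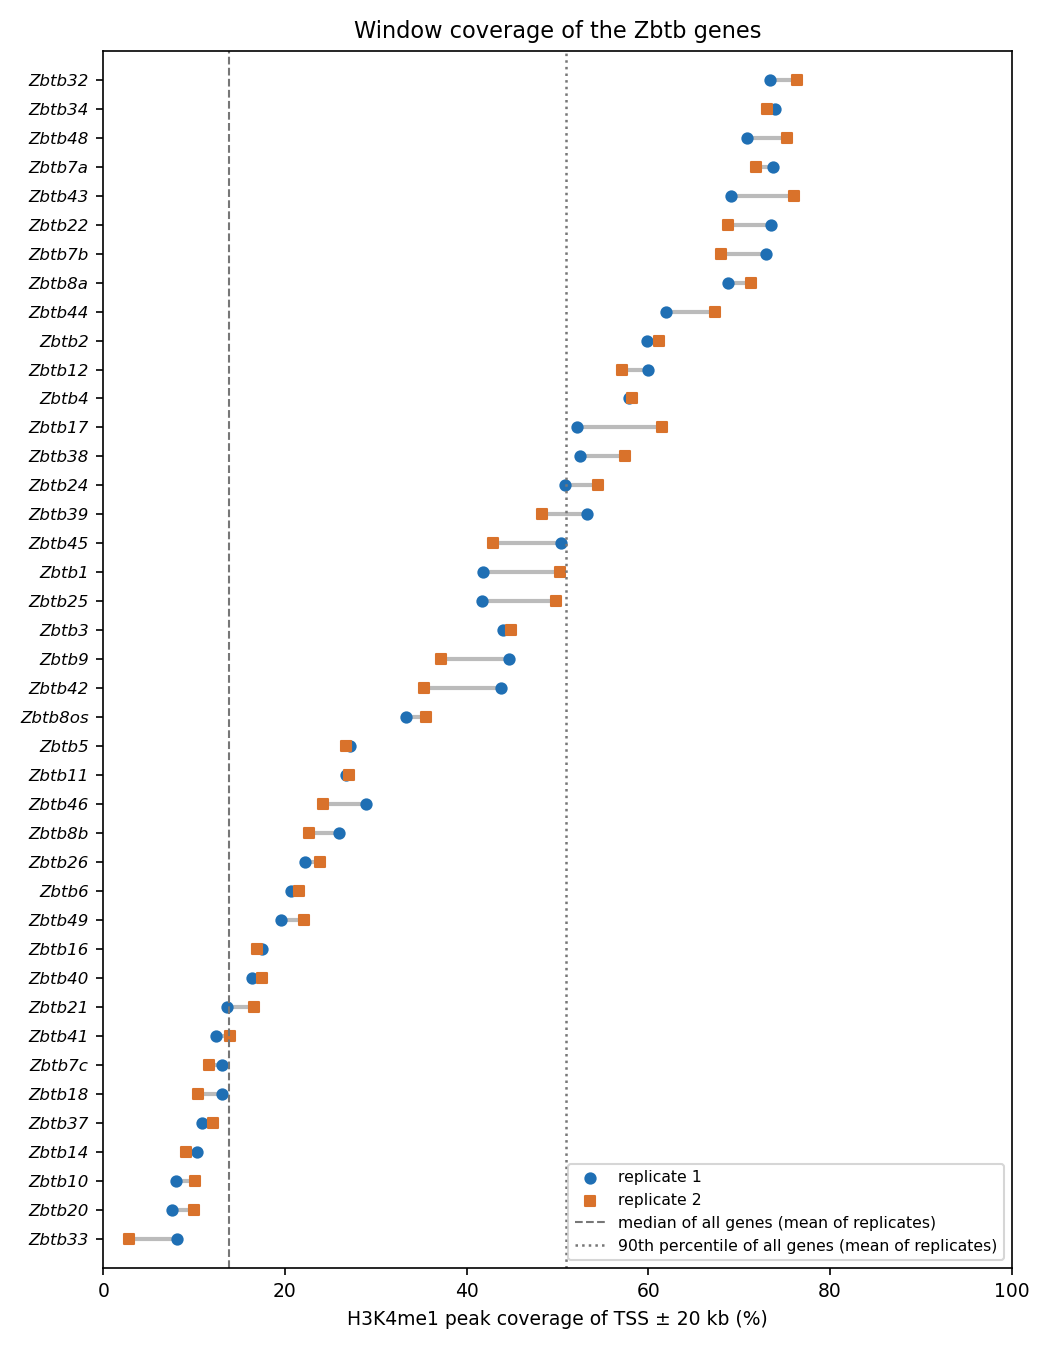
Percent of the 40 kb around each TSS covered by H3K4me1 peaks (x axis) for the 41 Zbtb genes (rows, in order of the mean), as points for replicate 1 and squares for replicate 2, joined by a grey bar. The dashed and dotted lines give the median and 90th percentile of all 21486 genes, and 14 members lie above the 90th percentile in both replicates while 7 lie below the median in both, against 8.9% and 48.2% of all genes.

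The members did not sit close to their median. By the mean of both replicates they ran from 5.48% to 74.9%, with quartiles at 17.2% and 58.5% (all genes, 2.62% and 33.2%). Under 30% were 18 members, from 30% to 40% only 2, and at 40% or more 21. Between 70% and 80% lay 8 members, or 19.5% of the family, a range that held 1.28% of all genes, and none lay at 80% or more. These shares too rest on the coverage that led to the choice of the family, and nothing is read from their distance. The 2 replicates differed by a median of 2.65 percentage points per member, far less than the spread over members, whose SD was 23.2 points. Replicate 1 was higher in 17 members and replicate 2 in 24, whereas among all genes replicate 1 was higher in 10830 and replicate 2 in 7303. No test was made of this difference.

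The most covered window was that of Zbtb32 (chr7:30589680-30602819), a repressor of lymphocyte activation, with 73.4% in replicate 1 and 76.3% in replicate 2, or 74.9% ± 2.04 (SD, n = 2). Zbtb34 (chr2:33406108-33431324) followed with 73.9% in replicate 1 and 73.0% in replicate 2, or 73.5% ± 0.636 (SD, n = 2). Zbtb48 (chr4:152019773-152027675), which encodes the telomere-binding protein TZAP, had 70.8% in replicate 1 and 75.2% in replicate 2, or 73.0% ± 3.10 (SD, n = 2). Zbtb7a (chr10:81135225-81152222), also called LRF, silences fetal globin genes in red cell precursors. Its window was covered by 73.7% in replicate 1 and 71.8% in replicate 2, or 72.8% ± 1.38 (SD, n = 2). Zbtb43 (chr2:33450287-33468581) had 69.1% in replicate 1 and 76.1% in replicate 2, or 72.6% ± 4.93 (SD, n = 2). Zbtb22 (chr17:33916176-33919325) had 73.5% in replicate 1 and 68.8% in replicate 2, or 71.1% ± 3.29 (SD, n = 2). Zbtb22 lies beside Tapbp, which encodes the antigen-loading protein tapasin and starts 3302 bp away. Neighbours in this order had overlapping replicate ranges, so their order is not set.

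At the other end was Zbtb33 (chrX:38189793-38197046), the only member on the X chromosome, which encodes the methyl-CpG binding protein Kaiso. Its window was covered by 8.16% in replicate 1 and 2.81% in replicate 2, or 5.48% ± 3.78 (SD, n = 2), and replicate 1 was the higher. The 944 genes of the X chromosome, present as a single copy in male cells, had medians of 0.964% in replicate 1 and 0.485% in replicate 2, so Zbtb33 lay above the median of its chromosome in both libraries. The part of copy number in its low value was not tested. Zbtb20 (chr16:42875689-43634392), needed for hippocampal development, had 7.55% in replicate 1 and 9.96% in replicate 2, or 8.75% ± 1.70 (SD, n = 2). Zbtb10 (chr3:9250567-9285333), which binds variant telomere repeats, had 8.05% in replicate 1 and 10.1% in replicate 2, or 9.05% ± 1.42 (SD, n = 2). Zbtb14 (chr17:69383175-69390752), also known as ZF5, had 10.3% in replicate 1 and 9.09% in replicate 2, or 9.68% ± 0.829 (SD, n = 2). Zbtb37 (chr1:161002922-161034864) had 10.8% in replicate 1 and 12.1% in replicate 2, or 11.4% ± 0.902 (SD, n = 2). Zbtb18 (chr1:177442351-177450764), a repressor needed for cortical neurons, had 13.1% in replicate 1 and 10.4% in replicate 2, or 11.7% ± 1.87 (SD, n = 2). Neighbours in this order differed by no more than their replicate spread, apart from the step between the ranges of Zbtb14 and Zbtb37.

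Zbtb genes of blood and immune lineages were listed as a group of 8, and their median was 51.4%. Besides Zbtb32 and Zbtb7a, high coverage was seen at Zbtb7b, which encodes the CD4 T cell factor ThPOK, with 72.9% in replicate 1 and 68.0% in replicate 2. Zbtb17 encodes MIZ-1, a partner of MYC, and had 52.2% in replicate 1 and 61.5% in replicate 2. Zbtb1, required for lymphocyte development, had 41.8% in replicate 1 and 50.3% in replicate 2. Zbtb46, a marker of classical dendritic cells, had 28.9% in replicate 1 and 24.2% in replicate 2. Zbtb16, the PLZF gene of innate-like lymphocytes and spermatogonia, had 17.5% in replicate 1 and 16.9% in replicate 2. Zbtb20 belongs to this group too, as a factor of plasma cells. The 8 therefore covered nearly the whole range of the family, from Zbtb20 to Zbtb32.

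The 4 genes tied to DNA methylation split in the same way. Zbtb4, a methyl-CpG binding relative of Kaiso, had 57.8% in replicate 1 and 58.2% in replicate 2. Zbtb38, the other relative of Kaiso, had 52.5% in replicate 1 and 57.4% in replicate 2. Zbtb24, mutated in an immunodeficiency with loss of centromeric DNA methylation, had 50.8% in replicate 1 and 54.5% in replicate 2. These 3 lay at or above 50% in both replicates while Zbtb33 was the lowest member. Zbtb2, which binds unmethylated CpG islands in embryonic stem cells, had 59.8% in replicate 1 and 61.2% in replicate 2, or 60.5% ± 0.972 (SD, n = 2). The telomere-binding pair Zbtb48 and Zbtb10 stood 73.0% against 9.05%. Both genes listed for neural development, Zbtb18 and Zbtb20, lay under the median of all genes in both replicates.

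The remaining members were without a role in the lists, and 25 genes, Zbtb8os among them, had a median of 34.4%. Above the 90th percentile in both replicates, besides those named, were Zbtb8a (68.7% and 71.3%), Zbtb44 (62.0% and 67.4%) and Zbtb12 (59.9% and 57.0%), replicate 1 first here and below. Zbtb39 (53.3% and 48.3%) was above it in replicate 1 only. In the middle were Zbtb45 (50.4% and 42.9%), Zbtb25 (41.7% and 49.9%), Zbtb3 (44.0% and 44.9%) and Zbtb9 (44.7% and 37.1%), with Zbtb42 (43.8% and 35.3%) and Zbtb8os (33.3% and 35.5%) below them. A further 6 members had means from 20.8% to 26.9%. They were Zbtb5 (27.1% and 26.7%), Zbtb11 (26.7% and 27.1%), Zbtb8b (26.0% and 22.6%) and Zbtb26 (22.3% and 23.9%), followed by Zbtb6 (20.7% and 21.5%) and Zbtb49 (19.6% and 22.1%). Near the median of all genes were Zbtb40 (16.4% and 17.5%) and, just under it, Zbtb7c (13.1% and 11.7%).

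The replicates differed most at Zbtb17, where replicate 1 minus replicate 2 was -9.33 percentage points. The same difference was -8.50 points at Zbtb1 and 8.46 points at Zbtb42, a gene of skeletal muscle, where replicate 1 was the higher. Differences above 5 points were seen in 9 members (22.0%) and in 12.0% of all genes. At all 3 genes both replicates stayed on the same side of the median of all genes.

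Around the TSS the mark of the Zbtb genes dipped and rose on both flanks. Over the 100 bp on each side of the TSS, 18.1% of their sequence was covered in replicate 1 and 13.8% in replicate 2, against 20.0% and 15.4% for all genes. The downstream flank reached 83.9% by 1700 bp in replicate 1 and 73.7% by 1800 bp in replicate 2. For all genes this maximum was 45.5% and 40.8%, by 1200 bp in both. The upstream flank of the family reached 69.4% and 68.3% at 1100 bp, against 39.3% and 34.0% for all genes. At 5 kb the family still had 41.9% and 35.1% upstream and 49.6% and 49.3% downstream, against 17.5% and 17.2%, and 23.1% and 23.8%, for all genes. At the TSS itself the family was thus slightly below all genes. Genes with a CpG-rich promoter, a class defined below, had 13.6% and 9.35% there. The family value was higher, but it includes members outside that class and members whose listed start lies inside the record. At the listed starts, 28 of 36 member promoters (77.8%) had no covered base in either replicate, against 59.9% of CpG-rich ones. The flank maxima of the family were above those of all genes and of the CpG-rich class. The class reached 65.9% and 59.7% downstream and 55.2% and 49.1% upstream. These flanks lie inside the window whose coverage led to the choice of the family, so nothing is read from the distance.

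**Figure D2:**
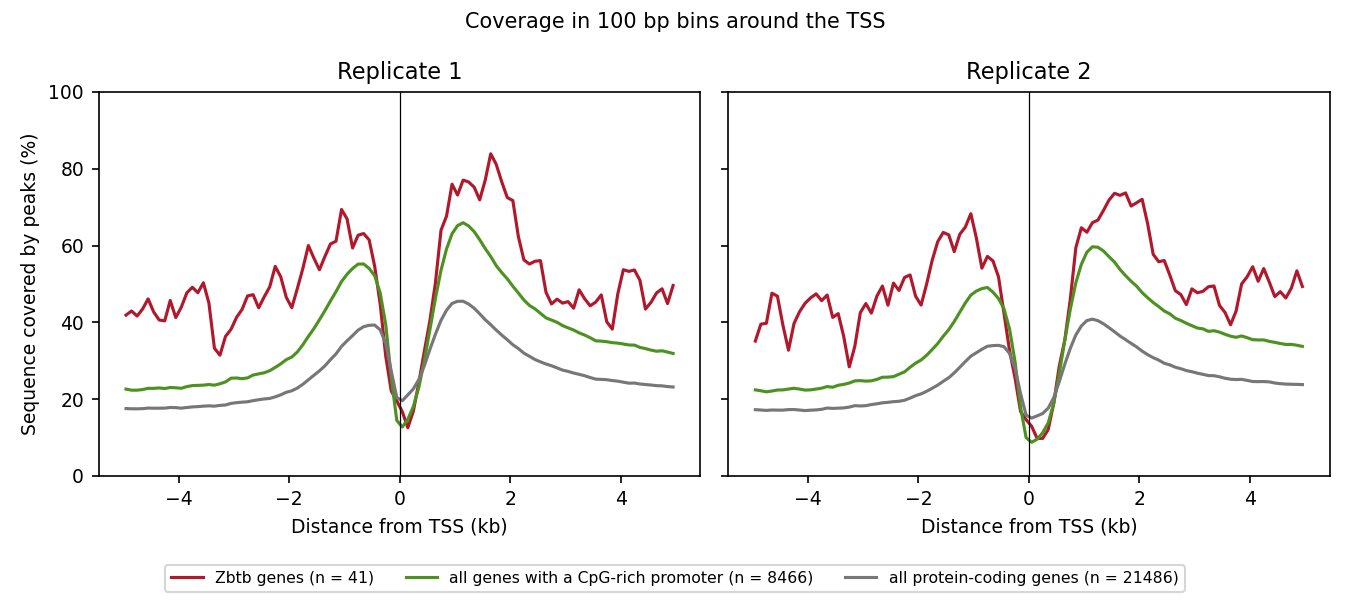
Percent of sequence covered by peaks (y axis) in 100 bp bins within 5 kb of the TSS (x axis, upstream to the left) for the Zbtb genes, all genes with a CpG-rich promoter and all genes, in each replicate. All 3 lines dip at the TSS, and the Zbtb line rises to 83.9% and 73.7% on the downstream flank.

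Gene by gene, replicated intervals flanked the TSS on both sides within 2 kb without covering it in 28 members, against 43.2% of all genes. An interval covered the TSS in 8 members, against 18.9% of all genes. These were Zbtb32, Zbtb7a, Zbtb8a, Zbtb44, Zbtb38, Zbtb42, Zbtb11 and Zbtb46. The TSS here is the 5′ end of the record, and the listed start can lie further inside. At Zbtb44, Zbtb11 and Zbtb46 it lies 924, 2367 and 68874 bp inside. The promoter sequences there had no covered base in either replicate. At Zbtb7a, 1046 bp inside, 6.67% of that sequence was covered in replicate 1 and 0% in replicate 2. The promoter sequences of Zbtb32, Zbtb8a, Zbtb38 and Zbtb42 were partly or fully covered in both replicates. In the lists of the single replicates, the TSS of Zbtb8a and Zbtb11 was covered in replicate 1 only. It was covered in both replicates in 6 members (14.6%), against 13.4% of all genes. Only the downstream side was marked in 3 members, Zbtb18, Zbtb37 and Zbtb33, against 7.45% of all genes. All 3 are among the 6 least covered windows. Only the upstream side was marked in 1 member, Zbtb2, against 3.23% of all genes. Its nearest downstream interval began 2033 bp from the TSS, just outside the limit of 2 kb, and its upstream interval of 5201 bp ended 397 bp from it. These classes come from the same lists as the choice of the family and are given as a description.

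Zbtb8b was the 1 member without a replicated interval within 2 kb. Its window was covered by 26.0% in replicate 1 and 22.6% in replicate 2, or 24.3% ± 2.38 (SD, n = 2). The nearest replicated intervals lay 5446 bp downstream and 4483 bp upstream of the 5′ end of the record. The start of Zbtb8b in the RefSeq promoter table lies 6151 bp further into the gene, and a replicated interval did lie within 2 kb of that start. There the window was covered by 17.8% in replicate 1 and 15.7% in replicate 2.

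**Figure D3:**
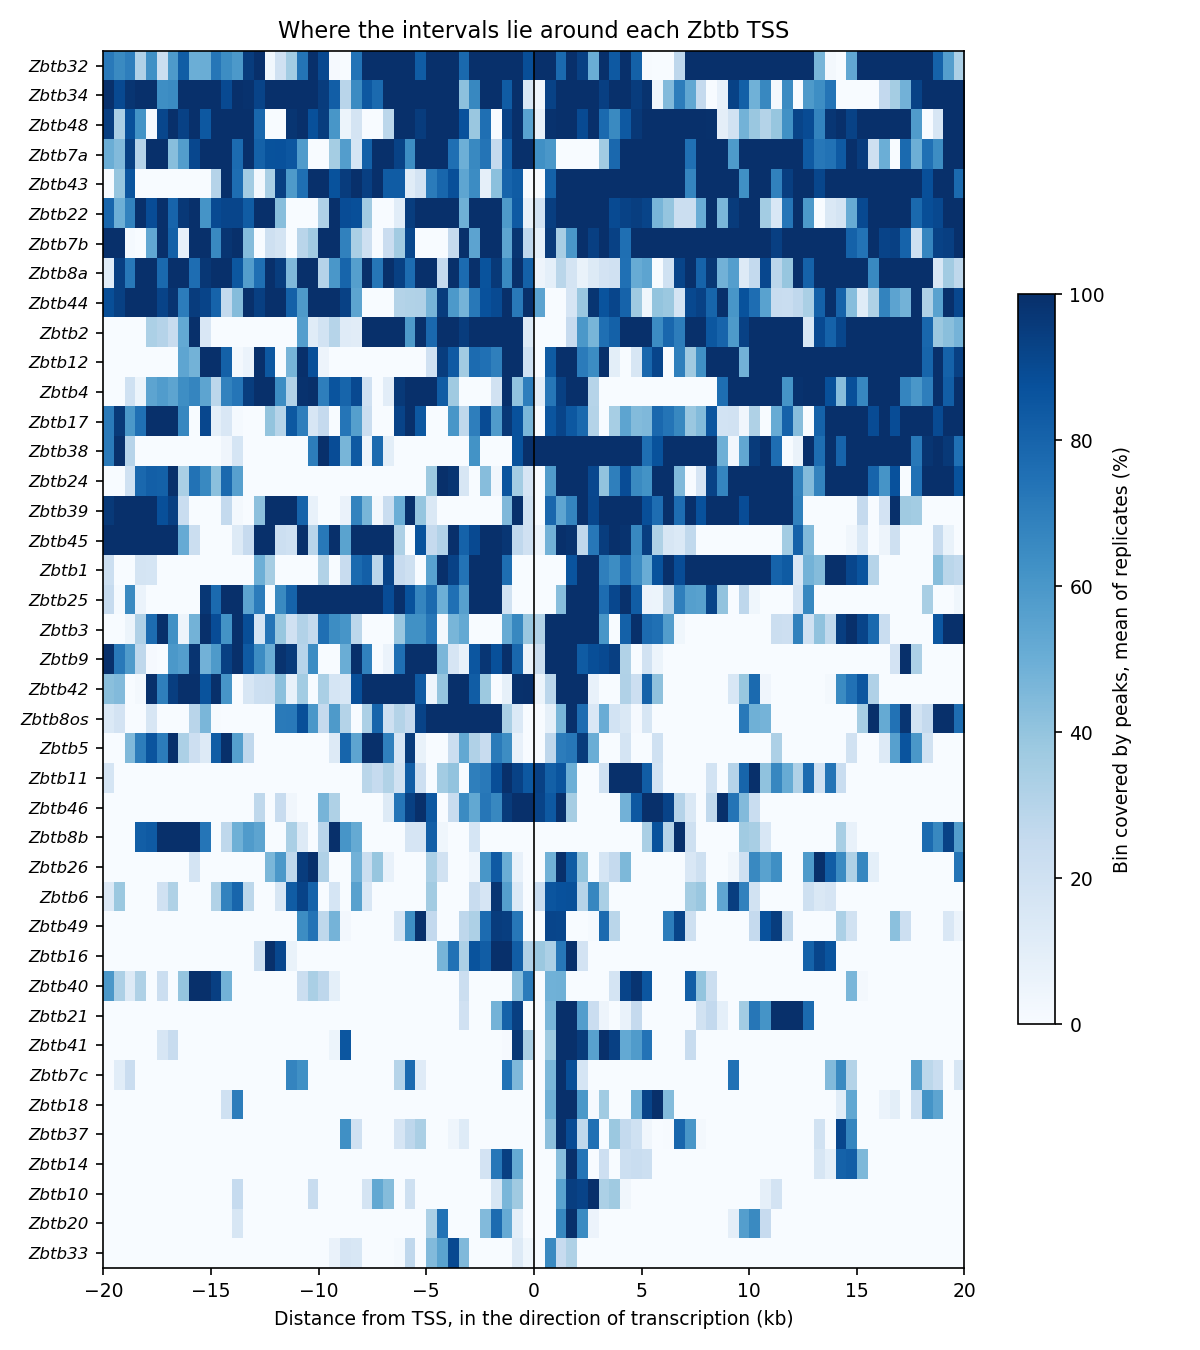
Peak coverage in 500 bp bins from 20 kb upstream to 20 kb downstream of each TSS (x axis) for the 41 Zbtb genes (rows, most covered at the top), with darker blue for a larger mean of both replicates. The upper rows are dark across the window, while the lowest rows hold the mark mainly near the TSS, with a pale gap at the TSS in most rows.

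Within the 40 kb, downstream coverage exceeded upstream coverage in both replicates in 23 members, and the reverse held in 14. Zbtb38 was the plainest case, with 84.6% and 87.5% downstream and 20.3% and 27.3% upstream. Zbtb43 had 91.7% and 94.8% downstream and 46.4% and 57.3% upstream. The opposite was seen at Zbtb9, with 66.8% and 52.6% upstream and 22.6% and 21.7% downstream, and at Zbtb45, with 69.1% and 60.9% and 31.6% and 24.8%. Over all genes, 45.8% were covered more downstream and 28.7% more upstream.

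The widest replicated interval overlapping a Zbtb window measured 11701 bp and lay from 9886 to 21586 bp downstream of the Zbtb12 TSS, at chr17:34904445-34916145. Zbtb12 (chr17:34894559-34896867) has a short record, so that interval lies beyond its 3′ end. The gene had 59.9% in replicate 1 and 57.0% in replicate 2, or 58.5% ± 2.03 (SD, n = 2), and the nearest other start, 3904 bp away, is that of Ehmt2, which encodes the histone methyltransferase G9a. At Zbtb7b (chr3:89377644-89393673) an interval of 10442 bp lay 4464 to 14905 bp downstream of the TSS, at chr3:89378768-89389209, inside the record. The mean coverage of that window was 70.5% ± 3.45 (SD, n = 2). Next came an interval of 8443 bp at chr2:33448645-33457087, shared by the windows of Zbtb34 and Zbtb43.

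Replicated intervals less than 1 kb apart were joined into domains. A domain of at least 20 kb overlapped the windows of 7 members, against 6.57% of all genes, and Zbtb34 and Zbtb43 share theirs. That domain joined 16 intervals over 44584 bp and spanned the stretch between these genes, which are read in the same direction from starts 37257 bp apart. The domain at Zbtb38 spanned 42445 bp and ran across its TSS and through most of the gene. The domain at Zbtb7a measured 31658 bp, and that at Zbtb44 31498 bp. Those at Zbtb24 and Zbtb7b measured 24688 and 24298 bp. The domains come from the same lists as the choice of the family and are given as a description.

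The strongest interval of the window was in the top 5% of signal values of both replicate lists for 21 members, against 26.5% of all genes. The signal is the authors' own value per peak and was used only as a rank within each list. The strongest interval at Zbtb8a ranked at the 99.54 and 99.998 percentile of the lists, and that at Zbtb7a at 99.97 and 99.98. The strongest interval at Zbtb33 ranked at 67.4 and 45.6, the lowest of the family in replicate 2. These ranks come from the lists that led to the choice of the family and are given as a description.

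The gene record was covered more than the window in 23 members (56.1%), against 43.1% of all genes. In 35 members the record lay above the median of all records in both replicates, as 47.5% of all genes did, and in 13 above their 90th percentile, as 8.45% did. These counts come from the lists that led to the choice of the family and are given as a description. The 3 largest excesses of the record over the window were in short genes. Zbtb9 (chr17:26973179-26976203, 3025 bp) had its record covered by 88.4% and 76.6% and its window by 40.9% ± 5.33 (SD, n = 2). Zbtb3 (chr19:8802489-8804853, 2365 bp) had 85.8% and 85.2% of the record and 44.4% ± 0.677 (SD, n = 2) of the window. Zbtb39 (chr10:127739530-127747349, 7820 bp) had 83.1% and 81.4% of the record and 50.8% ± 3.53 (SD, n = 2) of the window. Each of these records lies in the stretch just downstream of its TSS, where the mark was dense.

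The record fell furthest behind the window at Zbtb34, with 53.0% and 57.2% of its 25217 bp covered. Upstream of its TSS, toward Zbtb43, the coverage was 89.8% and 87.1%. At Zbtb8os (chr4:129335532-129349871) the record was covered by 18.2% and 17.7% and the window by 34.4% ± 1.58 (SD, n = 2). At Zbtb8a (chr4:129353632-129378028) the record had 52.6% and 57.0% and the window 70.0% ± 1.85 (SD, n = 2), with 81.3% and 83.1% upstream. Over the 41 members, window and record coverage had a Spearman correlation of 0.81, with the sequence just downstream of the TSS shared by both measures.

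**Figure D4:**
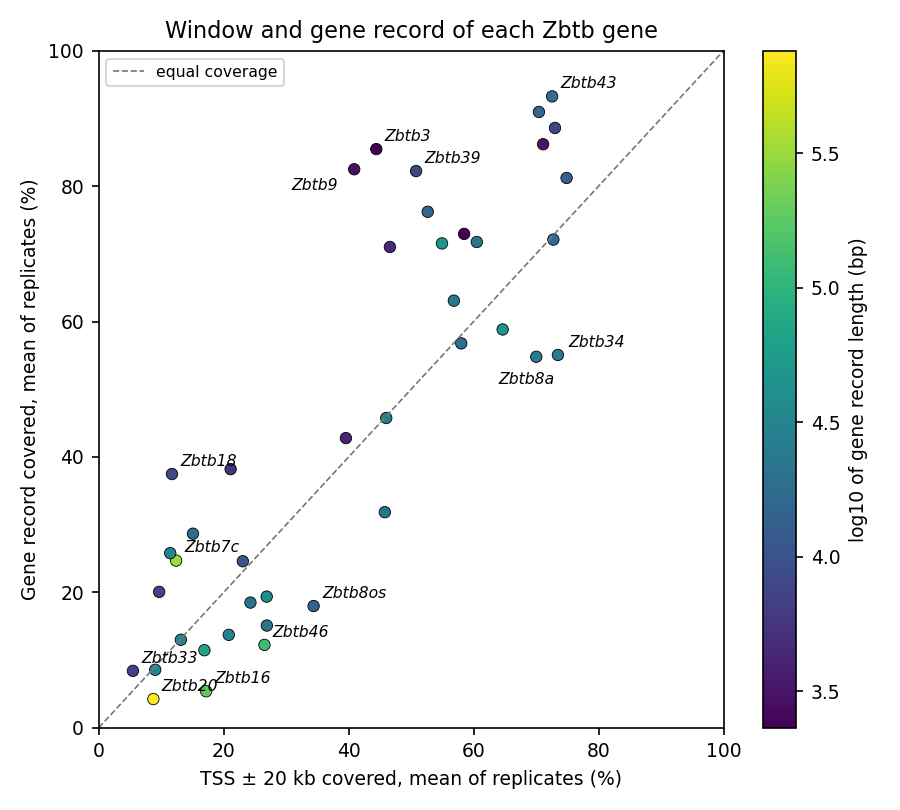
Mean coverage of the gene record (y axis) against that of the TSS window (x axis) for each of the 41 Zbtb genes, coloured by the log10 of record length, with a dashed line of equal coverage. Zbtb9, Zbtb3 and Zbtb39 lie far above the line, and Zbtb34, Zbtb8os and Zbtb8a below it.

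In long members the window shows only a part of the gene. Zbtb20, whose record runs over 758704 bp, had 4.18% and 4.32% of it covered, but in 20 kb bins its most covered stretch lay 720 to 740 kb from the 5′ end with 31.9% and 32.6%. The RefSeq promoter table places a start of Zbtb20 371595 bp inside the record, and the window around it was covered by 0.510% in replicate 1 and 0% in replicate 2, with no replicated interval within 2 kb. Zbtb7c, whose record of 328387 bp is the next longest, was covered by 24.4% and 25.0%, more than its window. Its bins reached 51.4% and 51.9% at 80 to 100 kb and 46.0% and 48.6% at 260 to 280 kb, and fell to 3.96% and 2.65% at 120 to 140 kb. Zbtb16 had 4.96% and 5.85% of its record covered, and the last bin, a remainder from 180 to 184 kb at its 3′ end, had 31.5% and 36.5%. Zbtb40 had 34.8% and 41.3% in its last bin, a remainder from 60 to 69.1 kb, and 11.0% and 11.9% over the record.

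Zbtb46 is the remaining long gene, with 13.2% and 11.3% of its 122254 bp covered. Its 5′ end, whose TSS lies 56 bp from that of Abhd16b on the other strand, was covered in both replicates. At its start in the promoter table, 68874 bp further in, the window was covered by 7.65% in replicate 1 and 6.37% in replicate 2. The choice of start also moved Zbtb38, from 54.9% at the 5′ end to 69.1% in replicate 1 and 74.4% in replicate 2 at a start 11825 bp inside. For Zbtb32 the start 9877 bp inside had 67.3% in replicate 1 and 64.4% in replicate 2, still above the 90th percentile of all genes.

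**Figure D5:**
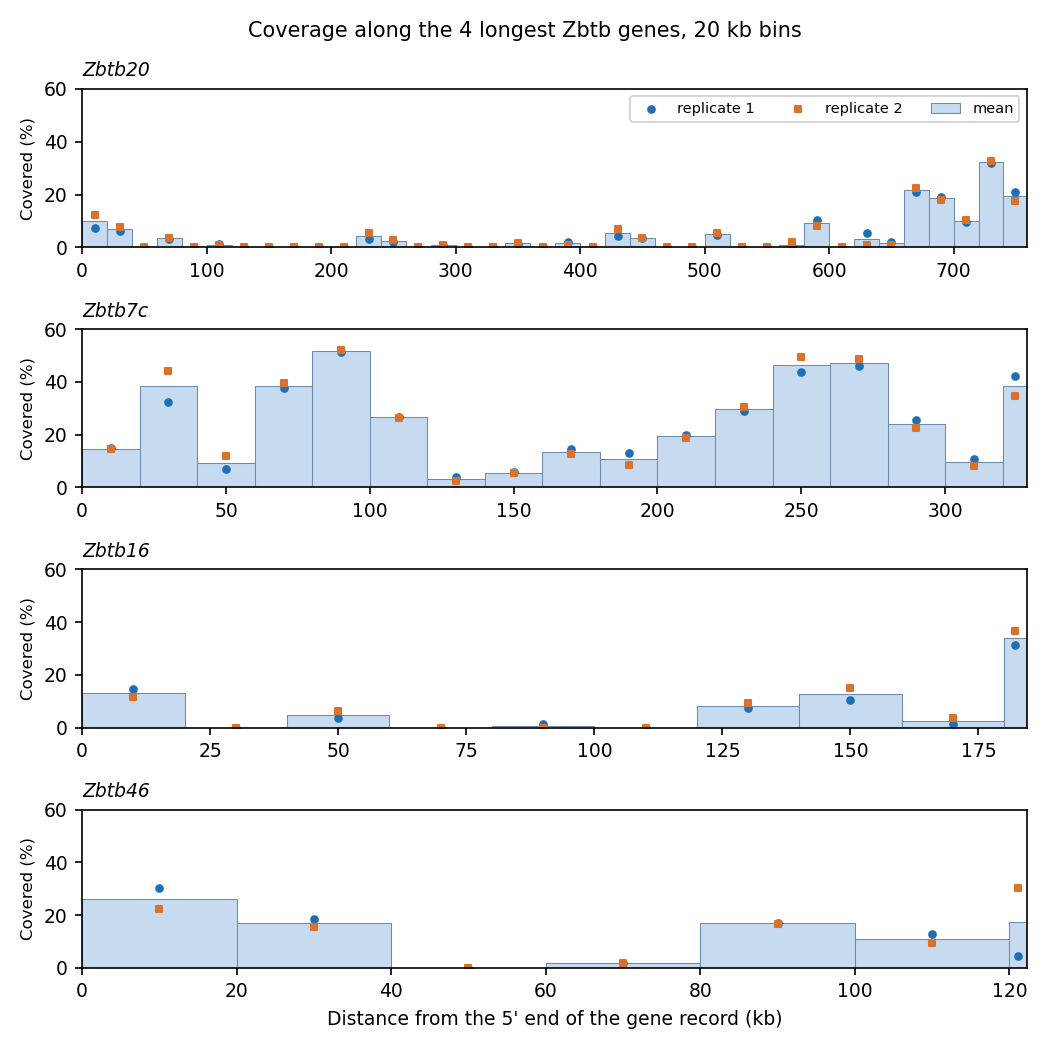
Coverage in 20 kb bins (y axis) along the records of Zbtb20, Zbtb7c, Zbtb16 and Zbtb46 from the 5′ end (x axis, kb), the last bin of each being a shorter remainder, with bars for the mean and points for each replicate. Zbtb20 is nearly free of peaks over most of its length and reaches 31.9% and 32.6% near its 3′ end, while Zbtb7c has broad covered stretches inside the gene.

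Some members share sequence and are not independent. Zbtb1 (chr12:76370051-76396955) and Zbtb25 (chr12:76348900-76370214) start 163 bp apart on opposite strands and share 99.6% of their windows, so their window values are nearly the same. The shared window was more covered on the Zbtb1 side, with 58.8% and 64.3%, than on the Zbtb25 side, with 24.8% and 36.2%. The records differed accordingly, with 43.7% and 47.8% for Zbtb1 and 25.8% and 37.9% for Zbtb25. Zbtb6 (chr2:37425500-37430919) and Zbtb26 (chr2:37432168-37443172) start 12253 bp apart and share 69.4% of their windows. Their means were 21.1% ± 0.569 (SD, n = 2) and 23.1% ± 1.15 (SD, n = 2), and the record of Zbtb6 had 35.1% and 41.3% against 25.4% and 23.9% for Zbtb26. Zbtb34 and Zbtb43 share 6.86%. Counting each overlapping pair once left a median window coverage of 40.2% over 38 members.

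Windows were also grouped by the number of other protein-coding starts they hold. With no other start, 19 members had a median of 17.2%, against 8.44% for all such genes. These 19 were widely spread, with quartiles at 12.1% and 62.6% (all such genes, 1.34% and 23.6%). With 1 or 2 others, 15 members had 39.6%, against 19.9%. With 3 or more, 7 members had 46.6%, against 40.2%. A TSS on the other strand lay within 1 kb in 6 members (14.6%) and in 10.8% of all genes. The 6 are Zbtb1, Zbtb25, Zbtb8os, Zbtb46, Zbtb26 and Zbtb49.

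The choice of the family did not use promoter base composition directly, but coverage and composition are linked. Over all genes the observed to expected CpG ratio rose with window coverage, so its values in the family are a description. Of the 36 matched promoters, 30 (83.3%) were CpG-rich, with an observed to expected CpG ratio of at least 0.6, against 48.4% of 17492 promoters. The median ratio was 0.840 for members and 0.577 for all genes, and the median GC content 65.7% and 56.3%. Genes with CpG-rich promoters were more covered as a class, with medians of 22.5% in replicate 1 and 22.9% in replicate 2 for 8466 genes. The 30 CpG-rich members had 44.2% in replicate 1 and 45.6% in replicate 2. Against that class, 21 of the 30 lay above its median in both replicates and 9 above its 90th percentile, as 47.3% and 8.74% of the class did. These counts rest on the coverage that led to the choice of the family, and nothing is read from them. Within the family the ratio and window coverage had a Spearman correlation of -0.08 over 36 genes, against 0.49 over all 17492. The family was chosen on coverage and most of its promoters are CpG-rich, so the correlations are not compared. Coverage was taken around the 5′ end of the record and the ratio at the listed start. Those lie 371595 bp apart at Zbtb20 and 68874 bp apart at Zbtb46. The points share the same libraries and, for overlapping windows, the same sequence.

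The sequences printed for Zbtb34, Zbtb18 and Zbtb33, each dense in CpG, held no covered base, and their windows had 73.5%, 11.7% and 5.48%. In all, 28 of 36 member promoters had no covered base in either replicate, against 60.3% of all promoters and 59.9% of CpG-rich ones. At Zbtb32, with 10 CpGs, the promoter start lies 3910 bp inside the record, and 47.7% of its 300 bases was covered in replicate 1 and 100% in replicate 2.

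Short motifs were counted in the same 300 bases on both strands. The GC box GGGCGG, read by SP factors, stood in 25 of 36 member promoters (69.4%), in 46.3% of all promoters and in 74.1% of CpG-rich ones. The ETS motif CCGGAAGT stood in 4 (11.1%), those of Zbtb11, Zbtb37, Zbtb41 and Zbtb45, against 5.28% of all promoters and 9.07% of CpG-rich ones. The CGCG element TCTCGCGA stood in that of Zbtb42, or 2.78% of the 36, against 1.53% of all and 2.93% of CpG-rich promoters. TATAAA stood in 2 (5.56%), Zbtb43 and Zbtb8os, against 13.3% of all and 5.85% of CpG-rich promoters. CCAAT stood in 13 (36.1%), against 39.2% of all and 37.9% of CpG-rich promoters. The E-box CACGTG stood in 5 (13.9%), against 7.91% of all and 11.5% of CpG-rich promoters. Sites of different motifs overlapped in 1 member promoter, that of Zbtb7b, between CCAAT and the GC box, and a match is a description of these letters only.

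Related genes outside the symbol rule give the family's values a setting. Of 8 BTB zinc finger genes with other symbols, 8 had a replicated interval within 2 kb, against 72.8% of all genes. Above the median of all genes in both replicates were 7, against 48.2% of all genes, and above the 90th percentile 2, against 8.9%. Hic2 had 71.6% and 69.2%, Bcl6b 65.0% and 55.5%, and Zfp131 the least with 5.14% and 5.23%. Bcl6, the germinal centre repressor, had 23.6% and 21.5%. Cul3, the ubiquitin ligase scaffold that BTB proteins bind, had 17.5% and 28.9%. The 396 zinc finger genes named Zfp had medians of 11.9% in replicate 1 and 11.5% in replicate 2, and the 37 BTB-Kelch genes named Klhl 12.3% in replicate 1 and 11.8% in replicate 2. No test was made between these lists and the Zbtb genes.

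The labelled cell type was checked by its markers. All 8 embryonic stem cell markers, Pou5f1, Nanog and Sox2 among them, lay above the median of all genes in both replicates, as 48.2% of all genes did. Their means ran from 33.7% to 74.4%. Of 5 fibroblast markers, Col3a1 and Dcn had no covered base in their windows, while Pdgfrb, Thy1 and Col1a1 had means from 30.2% to 39.8%. These 3 also lay above the median of all genes in both replicates. Pdgfrb, at 39.8%, was above Klf4 at 33.7% and Zfp42 at 37.1%, so the check did not fully separate the marker lists. Whether feeder cells added to the Zbtb values was not tested.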

How the data were processed

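H3K4me1 ChIP-seq was analysed in 2 biological replicates of E14TG2a.4 cells. Per the read-me lists, the authors deposited peak lists on mm10 for each replicate, for both pooled, and for peaks kept as replicated, and coarser lists on mm9. Which aligner and caller they ran is not given in the sources used here. The read-me lists name 1 further source file, of unstated role, for the replicate 2 and pooled lists that replicate 1 lacked. Each deposited peak has a signal value and −log10 p and −log10 q values, as the authors' caller wrote them. The signal ranked peaks within a list, and −log10 q of at least 2 was an alternative filter. No list holds read counts, so depth and counting error are unknown.

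Genes were the protein-coding genes of RefSeq on GRCm38.p6 (chromosomes 1 to 19, X and Y), 21887 in all. Strand came from the RefSeq promoter table for 17492 genes and from GENCODE vM1 by symbol for 3606 or synonym for 388, and 401 without a strand were left out. The 2 sources gave the same strand for 14570 of 14609 genes with both. Each record's 5′ end served as TSS. Sequences were read from the same promoter table. Coverage was computed with Python 3.11.15, numpy 2.4.6 and pandas 2.3.3, tested on simulated intervals, and drawn with matplotlib 3.10.9. An interval within 2 kb of the TSS counted as a promoter peak.

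All members are named with their coverage. Described in full are the 6 highest and 6 lowest, those without a promoter peak, the 3 with the largest replicate difference, the 3 whose record exceeds the window by most and the 3 by least, those with the 3 widest intervals, and those with overlapping windows. Alternatives were other windows, lists, filters, starts and member sets. The members and lists were chosen with earlier results of these data known. No test was made: there is 1 group, and genes are not replicates.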

Additional observations from a re-analysis of the deposited data

How the results depend on the processing

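The family median lay above that of all genes under every setting run. Each setting measures the same 2 libraries that led to the choice of the family, so nothing is read from this. The median window coverage of the Zbtb genes, 40.9% against 13.9% for all genes, moved with the processing. With 5, 10 and 50 kb on each side it was 53.8% (all genes, 21.2%), 45.8% (all genes, 16.3%) and 32.8% (all genes, 12.7%). With the 50000 strongest intervals of each list it was 19.4% (all genes, 2.53%), with the replicated list 46.2% (all genes, 15.7%), with the pooled list 47.3% (all genes, 17.5%), and with the coarser mm9 lists 55.3% (all genes, 23.0%). With the starts of the RefSeq promoter table, an alternative chosen after seeing the data, it was 45.1% (all genes, 13.3%) over 36 members. Leaving out a replicate gave 37.1% to 41.8%. The median record coverage, 42.8%, became 13.5% with the 50000 strongest intervals, 58.6% with the mm9 lists and 51.5% with either the replicated or the pooled list, and 41.3% to 43.7% without a replicate. The 14 members above the 90th percentile in both replicates became 8 with 5 kb windows, and 9 of 30 against the CpG-rich class, and the 32 above the median became 21 of 30 against that class, also added after seeing the data. With the 5 kb windows the share of all genes was 8.49%. In the CpG-rich class 8.74% lay above its 90th percentile in both replicates and 47.3% above its median. The mm9 lists also gave 14 above the 90th percentile, against 8.71% of all genes, and 12 of these were among the first 14. Zbtb12 (58.5%, 34.3% with mm9, as means of both replicates) and Zbtb38 (54.9%, 30%) left, Zbtb3 and Zbtb24 joined, and Zbtb26 went from 23.1% to 50.2%. The mm9 setting changed the lists and the source of the gene starts together. The remaining values moved less. Over the other settings the count above the median ran from 28 (50 kb, 48.3% of all genes) to 37 (5 kb, 47.2% of all genes). That above the 90th percentile ran from 10 (50 kb, 8.84% of all genes) to 16 (50000 strongest intervals, 7.97% of all genes). Promoter peaks ran from 34 of 36 members (promoter table starts, 71.9% of all genes with such a start) to 41 of 41 (within 5 kb, 76.2% of all genes). The causes of these shifts were not tested, but fewer intervals cover less, and the mm9 lists hold 40 of the members. No paired analysis was possible because there is 1 group. The unknown depth and the 2 libraries limit all values.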
